A study of Mus musculus with 79 samples.

Results

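Nkx1-2 divides single T+ Sox2+ progenitors of the mouse tail end into 12 cells with its mRNA and 41 without, 53 cells in all out of the 79 samples of the series. The cells were grouped by their Nkx1-2 value alone: at least 1 FPKM against below 1 FPKM, a unit that scales the fragments of a gene to its length and to the library total. Those values are therefore a description, and nothing about Nkx1-2 itself was tested. All 53 cells were wild type (WT), of strain C57BL/6N and Theiler stage 13 (TS13), an early somite stage. They came from caudal ends of pooled embryos, which were made from embryonic stem cells by tetraploid complementation, so that the embryo proper descends from the stem cell line. One sort on T and Sox2 fed one Fluidigm C1 chip, which isolates single cells in separate chambers. The number of embryos is not given. Cells of one sort are not replicates of a condition, so every difference between the classes is a description, with no p-value and no standard error. Bulk libraries set beside the cells were sorted fractions of WT C57BL/6N embryos at TS12 (Sox2+, T+ Sox2+ and T+), T+ cells at both stages from T knockout embryos (T KO, allele T2J/2J, strain C57BL/6J) and from WT C57BL/6N embryos, and 2 Tbx6+ libraries of strain C57BL/6J at TS14, titled Tbx6 KO and WT. Each is 1 library.

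Neuro-mesodermal progenitors lie at the caudal end of the elongating embryo and give rise to spinal cord and to paraxial mesoderm. They express T (Brachyury), a T-box factor of mesoderm formation, together with Sox2, a factor of neural and stem cells, and are maintained by Wnt and FGF signals. Nkx1-2 encodes an NK-family homeobox factor of the caudal lateral epiblast and the preneural tube, and its mRNA is used as a marker of these progenitors. Retinoic acid from the somites opposes the FGF and Wnt signals, and Cyp26a1, an enzyme that degrades retinoic acid, protects the tail end from it.

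The cells with Nkx1-2 held 1.06 to 84.1 FPKM of it, with a median of 3.41. Of the 12 cells, 10 lay below 10 FPKM, and only the cells numbered 38 and 44 in their titles lay above, at 84.1 and 27.4 FPKM. Of the 41 cells without Nkx1-2, 33 were listed at 0 and 8 held a value above 0 and below 1. Just inside the threshold stood 1.06 and 1.35 FPKM, and just outside it 0.880 and 0.728 FPKM. The share of cells with Nkx1-2 was 22.6% (exact Clopper-Pearson 95% interval 12.3% to 36.2%, counting error only). The number of fragments behind each cell is unknown, so a value of 0 does not show that a cell lacked the mRNA.

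The cells with Nkx1-2 were also cells in which more genes were detected, that is, had at least 1 FPKM. They held 5204 to 9001 detected genes with a median of 6595, and the cells without it 4075 to 7997 with a median of 5670. The ranges overlapped widely. Among the 26 cells with more than the median of 5902 genes, 9 held Nkx1-2 (34.6%, interval 17.2% to 55.7%), and among the other 27 cells 3 did (11.1%, interval 2.35% to 29.2%). Across the 53 cells the Spearman correlation of Nkx1-2 with genes detected was 0.32, and among the 12 cells with Nkx1-2 it was -0.34. The FPKM summed over all genes was 475592 to 578528.5 (median 527554) in cells with Nkx1-2 and 455877 to 692465 (median 574776) in cells without it. How far the number of genes detected decides which cells show Nkx1-2 was not tested.

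The classes differed in their cell numbers as well. Of the 18 cells numbered 30 to 47, 9 held Nkx1-2, against 3 of the other 35 cells. In the cells numbered 38 to 47, 7 of 10 held it, and in the 6 cells numbered 90 to 95 none did. More genes were detected at higher numbers over the 47 cells numbered 1 to 47, with a Spearman correlation of 0.81, and what the number stands for is not given in the sources used here. Within numbers 30 to 47 the classes were closer in genes detected, with medians of 7018 in the 9 cells with Nkx1-2 and 6738 in the 9 without. Differences adjusted for genes detected were therefore also fitted within these 18 cells. They are given where a gene with a difference of at least 1 was under 1 or turned round there, and for the genes of the sort, Tbx6, Sox3 and Msgn1.

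**Figure D1:**
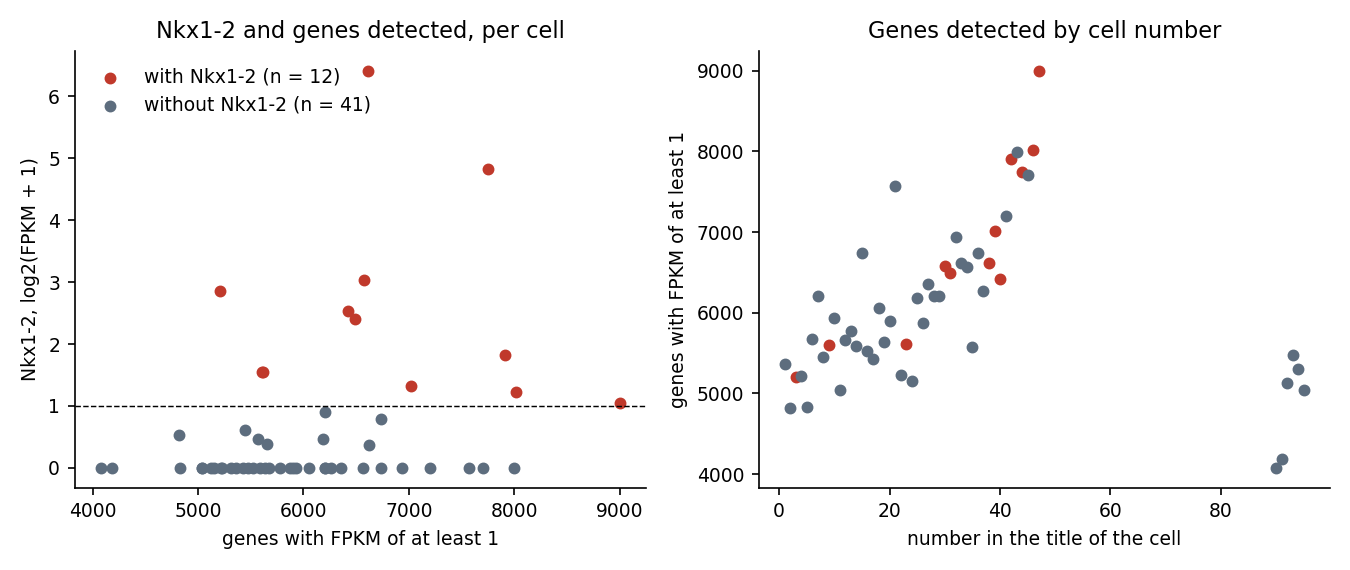
Left, Nkx1-2 as log2(FPKM + 1) against the number of genes with at least 1 FPKM in each of the 53 cells, with a dashed line at 1 FPKM. Right, the number of genes against the number in the cell's title. Each point is a cell, red with Nkx1-2 (n = 12) and grey without it (n = 41). Most red points lie to the right in the left panel, and 9 of them fall between 30 and 47 in the right panel.

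The genes of the sort were read next. T was detected in all 12 cells with Nkx1-2, at 72.0 to 888 FPKM with a median of 214, and in all 41 cells without it, at 35.8 to 852.5 FPKM with a median of 334. The ranges nearly coincided. Sox2 was detected in 11 of 12 cells with Nkx1-2, with a median of 23.6 and a highest value of 63.0 FPKM, and in 35 of 41 cells without it, with a median of 21.2 and a highest value of 77.4 FPKM. Both mRNAs together were thus found in 11 of 12 cells with and 35 of 41 cells without Nkx1-2, so the label of the sort held in most cells of either class. The 1 cell with Nkx1-2 but no Sox2 mRNA, numbered 3, held 464 FPKM of T and 202 FPKM of Msgn1, the highest Msgn1 value of all 53 cells. Among markers of blood, neural crest and connective tissue, the globins Hba-x, Hbb-y and Hbb-bh1, the neural crest factors Sox10 and Foxd3, and the collagens Col1a1 and Col3a1 were below 1 FPKM in every cell. Others on the same lists were not: the neurotrophin receptor gene Ngfr was detected in 6 of 12 cells with and 19 of 41 without Nkx1-2, Sox9, a SoxE factor, in 4 of 12 cells with and 12 of 41 without Nkx1-2, the collagen Col1a2 in 4 of 12 cells with and 10 of 41 without Nkx1-2, and Etv2, an ETS factor of the endothelium, in 5 of 12 cells with and 8 of 41 without Nkx1-2.

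To take the number of genes into account, the class difference was fitted for each gene on log2(FPKM + 1) with the number of detected genes as a linear term. This adjusted difference is that of cells with minus cells without Nkx1-2, and it understates the difference of genes with low values. Over 8825 genes detected in at least 10 of the 53 cells, 566 were at least 1 higher on this scale (6.41%) and 534 at least 1 lower (6.05%), together 1100 genes (12.5%). The plain difference of class means, without the term, was at least 1 higher for 1187 genes (13.5%) and at least 1 lower for 102 (1.16%), together 14.6%. The median over all genes was -0.02 with the term and 0.27 without it. With the term the counted genes thus divided nearly evenly between both directions. Without it 1187 of 1289 were higher in cells with Nkx1-2. The filter bears on the classes unequally. A gene found only in cells with Nkx1-2 needs 10 of 12 cells to pass, and a gene found only in the others 10 of 41. The near-even division therefore holds only for genes that passed. Of the 566 genes, 416 differed by at least 0.5 in the same direction both in the 27 cells with fewer genes and in the 26 with more, as did 267 of the 534. These groups are the same 53 cells that gave the adjusted difference, so neither count is a check of it. The share of all 8825 genes that met this rule is not given here. The group with fewer genes holds only 3 cells with Nkx1-2, so the values within it rest on these 3 cells.

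After adjustment T differed by -0.29 and Sox2 by 0.33 between the classes, and within numbers 30 to 47 by -1.06 and 0.57. T was not lower throughout: its plain difference was 1.23 in the cells with fewer genes and -0.93 in the cells with more. Sox2 likewise differed by -0.79 in the cells with fewer genes and by 1.08 in those with more. Neither factor of the sort therefore kept a direction. Tbx6, the T-box factor of presomitic mesoderm that represses Sox2 in the mouse, was detected in 12 of 12 cells with Nkx1-2 (median 19.3 FPKM, range 3.45 to 59.8) and in 34 of 41 cells without it (median 27.3 FPKM, range 0 to 181). Its adjusted difference was -0.24, but 0.64 within numbers 30 to 47 and 0.31 without the term, so it kept no direction either. The highest values stood in cells without Nkx1-2.

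Sox3 and Msgn1 mark the first steps towards either fate. Sox3, a SoxB1 factor of neural progenitors, was detected in 8 of 12 cells with Nkx1-2 (median 2.05 FPKM, highest 28.5) and in 14 of 41 cells without it (median 0, highest 36.1). Its adjusted difference was 0.70, but 0.13 within numbers 30 to 47, where 6 of 9 cells with and 5 of 9 cells without Nkx1-2 held it. Msgn1, a bHLH regulator of presomitic mesoderm, was detected in 6 of 12 cells with Nkx1-2 (median 1.50 FPKM, highest 202) and in 9 of 41 cells without it (median 0, highest 81.9). Its adjusted difference of 1.34 stood at 0.20 within numbers 30 to 47 and at 0.53 without the cell numbered 3. Both mRNAs together were found in 4 of 12 cells with Nkx1-2 and in 3 of 41 cells without it. Among numbers 30 to 47 this was 3 of 9 in each class, and among the cells with more genes 3 of 9 with and 3 of 17 without Nkx1-2.

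Single cells show the mixture behind these medians. The cell with the most Nkx1-2, numbered 38 with 84.1 FPKM, held 114 FPKM of T, 26.1 of Sox2, 28.5 of Sox3, 2.12 of Msgn1 and 21.3 of Tbx6. It was the cell with the highest Sox3 of its class. The next, numbered 44 with 27.4 FPKM, held 206.5 FPKM of T, 35.1 of Sox2, 6.20 of Sox3 and no Msgn1. The cells numbered 39 and 42, with 1.49 and 2.53 FPKM of Nkx1-2, held 116.5 and 54.7 FPKM of Msgn1 together with 4.11 and 10.4 FPKM of Sox3. Cells with a low Nkx1-2 value thus included cells with mesodermal and with neural mRNA at once, and the cell numbered 9, with 1.94 FPKM of Nkx1-2, held 888 FPKM of T and neither Sox3 nor Msgn1.

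**Figure D2:**
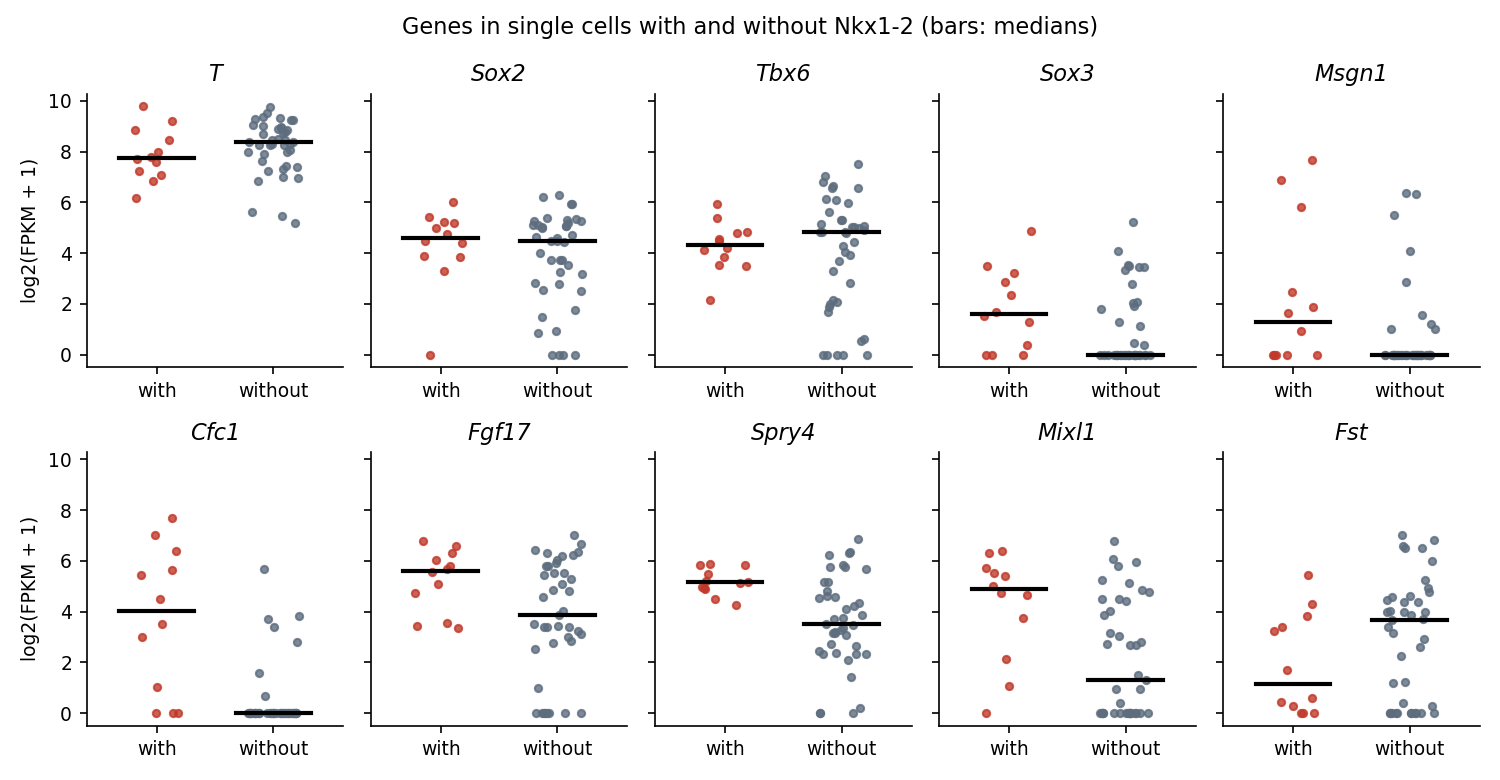
Levels of 10 genes as log2(FPKM + 1) in the 12 cells with Nkx1-2 (left in each panel) and the 41 cells without it (right). Each point is a cell and each bar a median. T and Tbx6 have lower medians in cells with Nkx1-2 and overlap widely, while Cfc1, Fgf17, Spry4 and Mixl1 have higher medians and Fst a lower one.

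Genes were then read by role, from 28 lists of 391 distinct genes. Of these, 255 passed the filter of 10 cells, and 13 were at least 1 higher (5.10%) and 11 at least 1 lower (4.31%) in cells with Nkx1-2, with a median of -0.02. Both shares are close to the 6.41% and 6.05% of all genes. T, Sox2 and Nkx1-2 were left out of list counts. Of the 24 genes at least 1 in size, 10 were so in the same direction within numbers 30 to 47, 11 were under 1 there, 2 turned round and 1 stood at 0. The median turned round there in 10 of the 25 lists with at least 3 genes compared. Because a gene passes the filter more easily where it is frequent in many cells, these counts and medians describe the genes that passed and not whole lists. Dppa3, in none of 12 cells with and 11 of 41 without Nkx1-2, passed. Dhrs3, in 6 of 12 cells with and 2 of 41 without Nkx1-2, did not.

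Axial progenitor genes did not stand above the other genes. Of 15 compared, Fgf17 was at least 1 higher and Wnt5b at least 1 lower, and the list median was -0.22 against -0.02 over all genes, and -0.09 within numbers 30 to 47. Fgf17, an FGF ligand of the tail bud, was detected in 12 of 12 cells with Nkx1-2, at 9.31 to 110 FPKM with a median of 48.2, and in 33 of 41 cells without it, at 0 to 128 FPKM with a median of 13.8. Its adjusted difference was 1.16, and 1.08 within numbers 30 to 47. Fgf8, the main FGF ligand of the progenitor zone, was detected in every cell of both classes with medians of 132 FPKM with and 128 FPKM without Nkx1-2 and a difference of 0.06. Wnt3a, the Wnt ligand that sustains the progenitors, had medians of 33.6 FPKM with and 21.6 FPKM without Nkx1-2 and a difference of 0.68, and Wnt5b differed by -1.0 (-0.55 within numbers 30 to 47), with medians of 71.4 FPKM with and 92.2 FPKM without Nkx1-2. The caudal homeobox genes lay slightly below 0, with Cdx1 at -0.39, Cdx2 at -0.19 and Cdx4 at -0.22. Cyp26a1 had medians of 173 FPKM with and 159 FPKM without Nkx1-2, a difference of -0.09, and Hes3, a Hes repressor of axial progenitors, was detected in 4 of 12 cells with and 13 of 41 without Nkx1-2.

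Neural progenitor genes had a list median of 0.25, and none of the 10 compared was 1 higher or lower. The members farthest apart were Zic2, a zinc finger factor of the neural plate, and Nes, an intermediate filament gene of neural progenitors. Zic2 was detected in 10 of 12 cells with Nkx1-2 (median 2.08 FPKM) and in 13 of 41 cells without it (median 0), a difference of 0.90. Nes was detected in 5 of 12 cells with and 21 of 41 without Nkx1-2, a difference of -0.66. Foxb1, a forkhead factor of the neural plate, had medians of 27.4 FPKM with and 17.6 FPKM without Nkx1-2 and a difference of 0.89. Within numbers 30 to 47 the plain difference of Foxb1 was -0.33, while those of Zic2 and Nes were 0.50 and -0.345. Some later neural genes were rarely detected: Sox1 was detected in 2 of 12 cells with and 3 of 41 without Nkx1-2, and Olig2, Olig3, Sox21 and Dbx1 in none. Others on the list were found more often. Nkx6-2 was detected in 5 of 12 cells with and 12 of 41 without Nkx1-2. Pax6 was detected in 4 of 12 with and 7 of 41 without it, and Irx3 in 4 of 12 with and 6 of 41 without it. The list median was -0.05 within numbers 30 to 47.

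Presomitic and paraxial mesoderm genes had a list median of -0.22, with 2 of 14 at least 1 higher and 2 at least 1 lower. Msgn1 and Tcf15, a bHLH factor of the somites, were the higher ones. Tcf15 was detected in 6 of 12 cells with Nkx1-2 (highest 70.2 FPKM) and in 4 of 41 cells without it (highest 33.7 FPKM), a difference of 1.27. Its plain difference was -0.28 in the cells with fewer genes and 2.205 in those with more. The lower ones were Dll3, a Notch ligand of the segmentation clock, and Dkk1, a secreted Wnt antagonist. Dll3 had medians of 49.0 FPKM with and 73.2 FPKM without Nkx1-2 and a difference of -1.53, and Dkk1 medians of 14.3 FPKM with and 34.8 FPKM without Nkx1-2 and a difference of -1.41. Both were farthest from 0 in the cells with fewer genes, where the plain differences were -3.17 for Dll3 and -3.75 for Dkk1, against -0.33 and -0.06 in the cells with more. Within numbers 30 to 47 the adjusted differences were -0.52 for Dll3 and -0.36 for Dkk1. The list median was 0.16 within numbers 30 to 47.

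FGF targets were read together with their ligands. Of 17 FGF genes compared, Fgf17 and Spry4 were at least 1 higher and Fgf15 at least 1 lower, and the list median was 0.06 (-0.05 within numbers 30 to 47). Spry4, a feedback inhibitor of FGF signalling, was detected in 12 of 12 cells with Nkx1-2, at 18.4 to 57.4 FPKM with a median of 34.8, and in 37 of 41 cells without it, at 0 to 114 FPKM with a median of 10.5. No cell with Nkx1-2 was low in Spry4, while the cells without it covered the whole range. The adjusted difference was 1.24, and 0.66 within numbers 30 to 47. Spry1, another inhibitor of the family, had medians of 23.3 FPKM with and 0.390 FPKM without Nkx1-2 and a difference of 0.90. Other FGF targets did not share this, with Dusp6 at 0.54, Etv5 at 0.12, Spry2 at 0.11 and Etv4 at -0.41. Fgf15, an FGF ligand of the neural tube, had medians of 22.7 FPKM with and 26.04 FPKM without Nkx1-2 and a difference of -1.26, or -0.91 within numbers 30 to 47.

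Wnt targets had a median of 0.10 over 14 genes, with only Dkk1 beyond 1 in size. Axin2, the general feedback target of Wnt signalling, was detected in 12 of 12 cells with Nkx1-2 (median 67.8 FPKM) and in 39 of 41 cells without it (median 43.8 FPKM), a difference of 0.60. The 14 Notch and segmentation clock genes compared had a median difference of -0.16, with Dll3 lowest and Notch1 highest at 0.81. Hes7, the oscillating clock repressor, stood at -0.13. Retinoic acid genes had the lowest median of the signalling lists, -0.41 over 9 genes. Crabp2, a retinoic acid binding protein, differed by -1.55 although its medians were 283 FPKM in cells with and 239 FPKM in cells without Nkx1-2, and its plain difference was -4.51 in the cells with fewer genes and 0.45 in those with more. Within numbers 30 to 47 its adjusted difference was -0.43. Aldh1a2, which makes retinoic acid, was highest in that list at 0.84. Its plain difference was -1.25 in the cells with fewer genes and 2.24 in those with more.

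BMP and Nodal genes had a median of 0.10 over 13, with Bmp4 at 1.24 and Fst at -2.20. Fst encodes follistatin, a secreted antagonist of activin and BMP. It was detected in 6 of 12 cells with Nkx1-2, with a median of 1.38 and a highest value of 41.9 FPKM, and in 28 of 41 cells without it, with a median of 11.7 and a highest value of 129 FPKM. Its difference was -2.69 within numbers 30 to 47, but 0.02 where all cells above 0 were set against cells at 0. Bmp4, a BMP ligand, was detected in 10 of 12 cells with Nkx1-2 (median 14.9, mean 17.9 FPKM) and in 24 of 41 cells without it (median 2.83, mean 27.1 FPKM), so that the mean and the median point in opposite directions. Bmp7, a further BMP ligand, was found in 1 of 12 cells with and 13 of 41 without Nkx1-2, and Id1 and Id2, general BMP targets, stood at -0.15 and 0.06.

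Hox genes give cells their position along the body axis, and those of the trunk were detected in both classes. Anterior Hox genes had a median of 0.11 over 15, with Hoxc5 at -1.29 and Hoxa4 highest at 0.85. Central Hox genes had a median of 0.21 over 12, with Hoxb8 at 1.05 and Hoxa6 at -0.60. Both medians were below 0 within numbers 30 to 47, at -0.19 and -0.33. The plain difference of Hoxb8 was -0.01 in the cells with fewer genes and 1.62 in those with more. For Hoxa6 these values were 2.32 and -1.57. Of 12 posterior Hox genes only Hoxa10 passed the filter, and 6 were below 1 FPKM in every cell.

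Among primitive streak genes, 5 compared, the median was 0.34 and Mixl1 was at least 1 higher. Mixl1, a paired-type homeobox factor of the streak, was detected in 11 of 12 cells with Nkx1-2, with a median of 28.7 and a highest value of 83.2 FPKM, and in 21 of 41 cells without it, with a median of 1.50 and a highest value of 110 FPKM. The adjusted difference was 1.16, and 0.37 within numbers 30 to 47. Eomes was below 1 FPKM in every cell. Of mesenchymal transition genes, 9 with a median of 0.29, the matrix protease Mmp2 was at 1.03 (0.93 within numbers 30 to 47), detected in 11 of 12 cells with and 16 of 41 without Nkx1-2, and the intermediate filament gene Vim at -1.43, detected in 8 of 12 cells with and 33 of 41 cells without Nkx1-2. Vim stood at -0.30 within numbers 30 to 47, and its plain difference was -4.08 in the cells with fewer genes and -0.08 in those with more. Of epithelial junction genes, 9 with a median of -0.04 (0.19 within numbers 30 to 47), the claudins Cldn7 (1.56) and Cldn6 (1.04) were higher, and Cdh1, the epithelial cadherin, was found in 2 of 12 cells with and 16 of 41 without Nkx1-2, a difference of -0.95. Cldn6 turned to -0.49 within numbers 30 to 47. The plain difference of Cldn7 was -0.73 in the cells with fewer genes and 2.72 in those with more.

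Pluripotency and germ cell genes had a median of -0.39 over 7. Dppa3, a germ cell gene, was detected in none of the 12 cells with Nkx1-2, which allows a share of up to 25%, and in 11 of 41 cells without it, with a highest value of 246 FPKM. None of the 18 cells numbered 30 to 47 held it. Dnd1, an RNA-binding protein of germ cells, was detected in 8 of 12 cells with and 9 of 41 without Nkx1-2, a difference of 1.25. Nanog and Lin28a, pluripotency genes, stood at -0.39 and -0.33.

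Of the lists for other tissues, lateral plate genes had the highest median sums, among them the forkhead gene Foxf1, detected in 11 of 12 cells with Nkx1-2 (median 60.2 FPKM) and in 35 of 41 cells without it (median 36.7 FPKM). Their part in the other results was not tested. Lateral plate and intermediate mesoderm genes summed to 77.1 to 219 FPKM per cell (median 165) in cells with Nkx1-2 and 0 to 501 FPKM (median 133) in cells without it. The 8 compared had a median of -0.01 (0.16 within numbers 30 to 47), with Bmp4 highest and Hand1, a bHLH factor of the lateral plate, lowest at -0.57. Endothelium and blood genes summed to 5.32 to 197 FPKM (median 30.0) in cells with Nkx1-2 and 0 to 239 FPKM (median 23.1) in cells without it, and 8 of 16 were below 1 FPKM in every cell. Of that list Lmo2, which hematopoietic and other cells express, was detected in 12 of 12 cells with and 28 of 41 without Nkx1-2, a difference of -0.35, and the VEGF receptor Kdr differed by 0.60. Notochord and node genes summed to medians of 9.71 FPKM with and 10.6 FPKM without Nkx1-2, endoderm genes to 5.89 with and 5.17 without, surface ectoderm genes to 49.4 with and 38.1 without, neural crest genes to 5.10 with and 8.93 without, and fibroblast genes to 1.08 FPKM with and 0.270 FPKM without Nkx1-2. No gene compared in these 5 lists was beyond 1 in size, against 12.5% of all genes. Few were compared: 2 of 10 notochord and node, 2 of 12 endoderm and 4 of 10 surface ectoderm genes. For neural crest it was 3 of 10 and for fibroblast 3 of 8. With so few genes this says little about these lists.

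For the cell cycle, none of 18 S phase genes and none of 19 mitosis genes was beyond 1 in size, against 12.5% of all genes. Members of both lists lay just under 1 in size. The list medians were 0.15 and -0.02, or 0.20 for both within numbers 30 to 47. The S phase gene farthest up was Gins2, a subunit of the replicative helicase complex, with medians of 74.7 FPKM with and 10.6 FPKM without Nkx1-2 and a difference of 0.95. The histone mRNA binding protein Slbp was lowest at -0.38. In mitosis the spindle checkpoint kinase Bub1b was highest at 0.97 and the kinesin Kif20a lowest at -0.92. Of the 17 hypoxia and glycolysis genes only Vegfa, the vascular growth factor, was beyond 1, at 1.04, and the glycolytic enzyme Pfkp was lowest at -0.49. Of 16 oxidative phosphorylation genes Ndufb5, a subunit of complex I, was at -1.13 and Sdha, of complex II, highest at 0.69. Ndufb5 turned to 0.46 within numbers 30 to 47, and its plain difference was -3.05 in the cells with fewer genes and 0.26 in those with more. The 6 dissociation stress genes compared had a median of -0.03, between the heat shock cochaperone Dnajb1 at -0.59 and the phosphatase Dusp1 at 0.64. Of 12 p53 and apoptosis genes Mdm2, a ubiquitin ligase and p53 target, was at 1.55, with medians of 30.2 FPKM with and 12.7 FPKM without Nkx1-2, but at 0.27 within numbers 30 to 47. Trp53inp1, another p53 target, was lowest at -0.56.

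**Figure D3:**
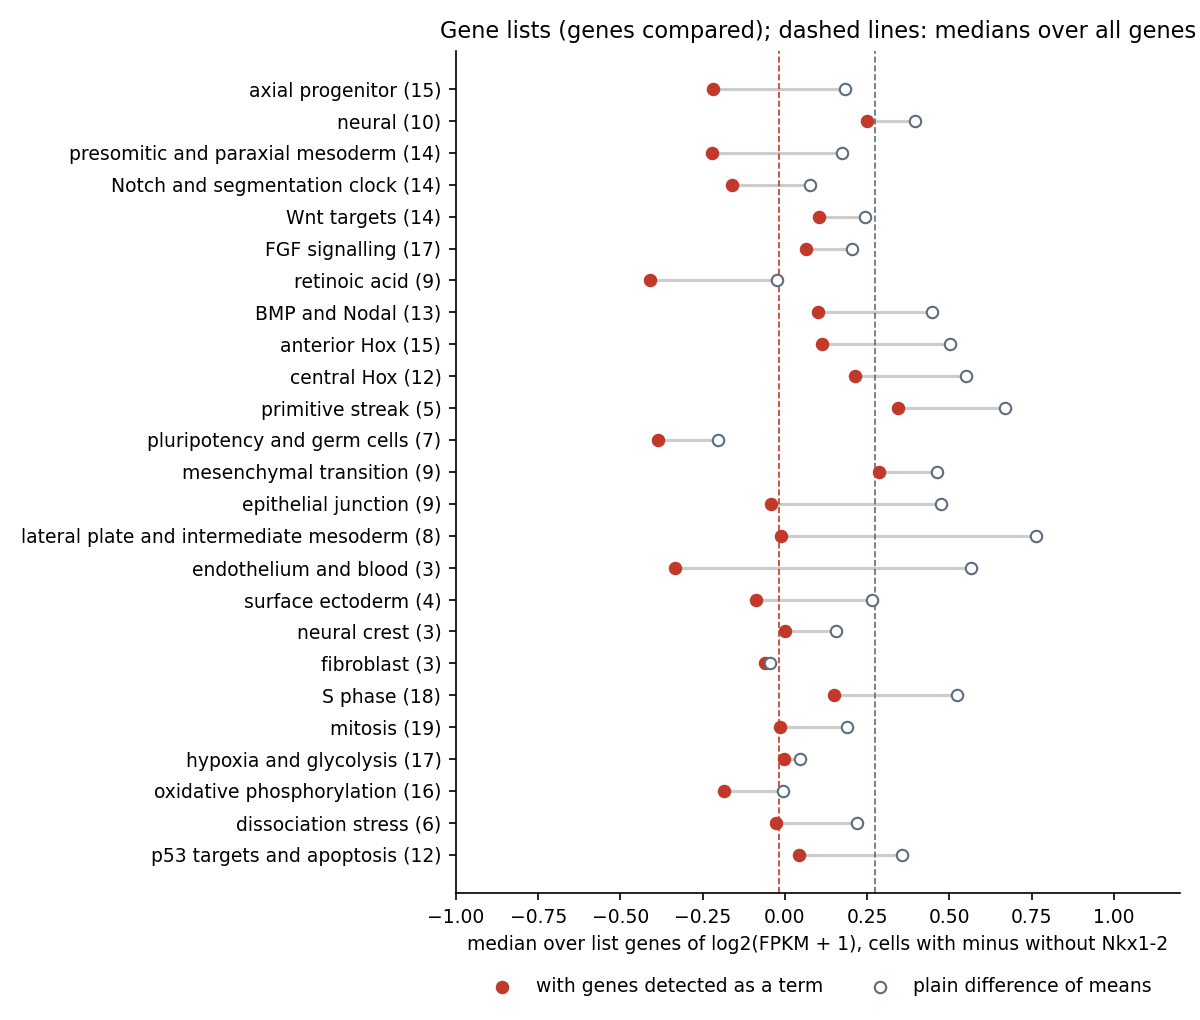
Median difference of log2(FPKM + 1) between cells with and without Nkx1-2 over the compared genes of each list of at least 3 (number in brackets). Filled points have the number of detected genes as a term and open points are plain differences of means; dashed lines mark the medians over all 8825 genes, -0.02 and 0.27. The filled points lie on both sides of their line, between -0.41 for retinoic acid and 0.34 for the primitive streak.

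The genes farthest apart between the classes were mostly outside the lists. The 12 highest and 12 lowest adjusted differences with at least 0.5 in the same direction in the cells with fewer and with more genes were named, and of these 24 only Fst is on a list. They were chosen by these values, so their size and their shares of cells are a description. The higher ones lay between 2.42 and 3.20 and the lower ones between -2.20 and -3.33. All 24 stayed beyond 1 in size when any single cell was left out, and 22 did within numbers 30 to 47. Numbers 30 to 47 hold 9 of the 12 cells with Nkx1-2 that the choice used. Neither count is therefore a check of the choice.

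Cfc1, among the highest, encodes Cryptic, a coreceptor for Nodal ligands that acts in left-right patterning. It was detected in 9 of 12 cells with Nkx1-2 (75%, interval 42.8% to 94.5%), with a median of 16.1 and a highest value of 203 FPKM, and in 6 of 41 cells without it (14.6%, interval 5.57% to 29.2%), with a median of 0 and a highest value of 50.4 FPKM. The highest value belonged to the cell numbered 38, which also held the most Nkx1-2. The adjusted difference was 2.52, and it was 3.52 within numbers 30 to 47 and 2.12 without the cell numbered 38. The plain difference was 0.89 in the cells with fewer genes and 3.47 in those with more. Lefty2, a Nodal antagonist, was detected in 5 of 12 cells with and 6 of 41 without Nkx1-2, a difference of 0.23, and Nodal itself in 1 of 12 cells with and 2 of 41 without Nkx1-2.

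Among the other high genes Tmem179b had the highest difference, 3.20, with 10 of 12 cells with Nkx1-2 (median 87.5 FPKM) and 15 of 41 cells without it (median 0). U2af1l4, a relative of the small subunit of splicing factor U2AF, was at 3.16, with 9 of 12 cells with and 11 of 41 without Nkx1-2. Papolg, a poly(A) polymerase, was at 2.69, with 11 of 12 cells with and 13 of 41 without Nkx1-2. Eif2ak1, the heme-regulated kinase of translation initiation, was detected in 12 of 12 cells with Nkx1-2 (3.84 to 108 FPKM, median 37.9) and in 17 of 41 cells without it (0 to 300.3 FPKM, median 0.189), a difference of 2.67. Akip1, a protein kinase A interacting protein, was detected in 7 of 12 cells with and 4 of 41 without Nkx1-2, with highest values of 260 FPKM with and 49.1 FPKM without Nkx1-2, a difference of 2.63. Lamtor4, a subunit of the lysosomal Ragulator complex, was at 2.63, Hmces, a DNA repair protein, at 2.62 and Fam213a, a peroxiredoxin-like protein, at 2.59. Hmgn3, a nucleosome-binding protein, was at 2.44, the MHC class I gene H2-K1 at 2.43 and Mageh1, of the MAGE family, at 2.42.

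Among the low genes Cdk2ap2, a CDK2-associated protein, was lowest at -3.33. It was detected in 4 of 12 cells with Nkx1-2 (highest 67.7 FPKM) and in 23 of 41 cells without it (highest 280.4 FPKM). Cdpf1 stood at -2.76, with 3 of 12 cells with and 19 of 41 without Nkx1-2, and Uba3, a subunit of the enzyme that activates NEDD8, at -2.67, with medians of 4.52 FPKM with and 36.6 FPKM without Nkx1-2. Cd63, a tetraspanin of late endosomes, was detected in 9 of 12 cells with Nkx1-2 (median 70.1 FPKM, highest 154) and in 40 of 41 cells without it (median 154 FPKM, highest 453), a difference of -2.39. Within numbers 30 to 47 that difference was -0.94, and Gpn3, a GTPase of RNA polymerase assembly at -2.35, stood at -0.92 there. The others were Stra13 (-2.38), the sorting nexin Snx12 (-2.36), Fam103a1 (-2.27), an activator of the mRNA cap methyltransferase, Rrp7a (-2.25), of ribosomal RNA processing, Slc25a28 (-2.20), the mitochondrial iron carrier mitoferrin, and Fst. For Fam103a1 the plain difference was -0.68, with 9 of 12 cells with and 33 of 41 without Nkx1-2, so most of its value came with the term for genes detected. Hist1h2ap, a histone H2A gene, was detected in none of the 12 cells with Nkx1-2, which allows a share of up to 25%, and in 18 of 41 cells without it, a difference of -2.30. It is 1 of many nearly identical histone genes, and its value is uncertain for that reason.

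Several of these genes share their place in the genome with another gene, and use of strand in the counting is not given in the sources used here. In RefSeq's annotation of GRCm38.p6 Tmem179b overlaps Taf6l, U2af1l4 overlaps Psenen, Eif2ak1 overlaps Aimp2, Akip1 overlaps Denn2b, Cfc1 overlaps Prss40, Snx12 overlaps Slc7a3 and Rrp7a overlaps Serhl. Papolg, Hmces, Hmgn3, Gpn3 and Fst overlap only numbered gene models. Reads of either partner may therefore count in these values. Fam213a, Stra13, Hist1h2ap and Fam103a1 had no entry under these symbols in that annotation, so their overlaps are not known here.

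**Figure D4:**
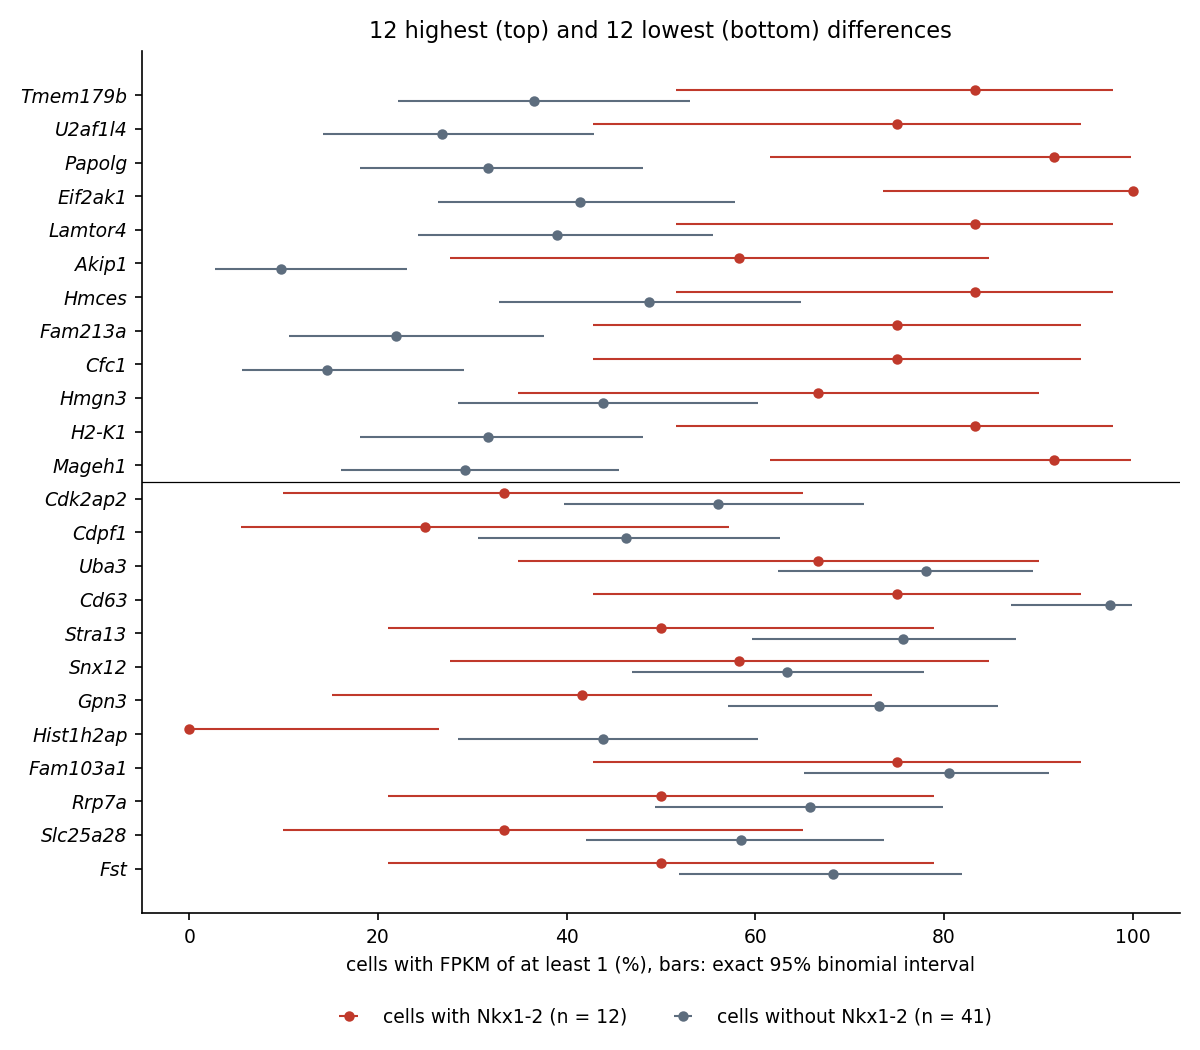
Share of cells with at least 1 FPKM for the 12 genes with the highest (top) and the 12 with the lowest (bottom) adjusted difference, in 12 cells with Nkx1-2 (red, upper of each pair) and 41 without it (grey). Bars are exact 95% binomial intervals for counting error only, and the genes were chosen by their difference. Cfc1 and Akip1 were found in 75% and 58.3% of cells with Nkx1-2, against 14.6% and 9.76% of cells without it.

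Nkx1-2 was next read in the bulk libraries, which the class rule did not use. In such samples fewer cells of a type and less RNA per cell cannot be told apart. Nkx1-2 was at 56.3 FPKM in the Sox2+ fraction, 25.8 in the T+ Sox2+ fraction and 1.00 in the T+ fraction. The same order held for Sox3, at 31.1, 6.61 and 0.402 FPKM. Sox2, on which the fractions were sorted, was at 50.5, 16.4 and 2.82 FPKM. In T+ cells Nkx1-2 was at 77.2 FPKM in T KO and 35.0 FPKM in WT at TS12, and at 60.6 FPKM in T KO and 25.9 FPKM in WT at TS13. WT T+ cells at TS12 thus stood at 1.00 FPKM among the sorted fractions, below T+ Sox2+, but at 35.0 FPKM beside T KO, above T+ Sox2+. These T+ libraries differed in other genes too. The globin Hba-x was at 5119 FPKM in the sorted T+ fraction and at 196 beside T KO, and Hoxb1 at 143 and 15.0. In the T+ Sox2+ and Sox2+ fractions Hba-x was at 40.6 and 87.3 FPKM. Every contrast of Sox2+ with T+ below uses this sorted T+ fraction. The reason for these differences was not tested. Of the Tbx6+ libraries, the one titled Tbx6 KO held 38.6 FPKM and the one titled WT 4.73 FPKM, and the titles and source names of that pair contradict each other on genotype. Each value is of 1 library, so none of these differences has a replicate error, and strain differs between T KO and WT.

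The genes that differed between the cell classes did not follow the order of Nkx1-2 in the sorted fractions more often than other genes. Of the 566 higher genes, 276 were higher in the Sox2+ than in the T+ fraction (48.8%), against 4392 of all 8825 genes (49.8%). Of the 534 lower genes, 253 were higher in the Sox2+ fraction (47.4%). Of the 12 named higher genes 7 were higher in the Sox2+ fraction (58.3%), and H2-K1, at 15.2 FPKM in Sox2+ against 4.99 FPKM in T+ cells, was the 1 with a difference of at least 1 (log2). Of the 12 named lower genes 4 were higher there, and Fst, at 0.535 FPKM in Sox2+ against 8.07 FPKM in T+ cells, was lower in the Sox2+ fraction as it was in the cells with Nkx1-2. Fgf17, at 103 FPKM in Sox2+ against 19.2 FPKM in T+ cells, had a bulk difference of 2.37 in the same direction as in the cells. Bmp4 and Msgn1 had the opposite one: Bmp4 was at 5.21 FPKM in Sox2+ against 52.0 FPKM in T+ cells, and Msgn1 at 19.3 FPKM in Sox2+ against 76.5 FPKM in T+ cells.

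Nkx1-2 was also detected in fewer single cells than most genes of its bulk level. In the bulk T+ Sox2+ fraction 1335 of the 19758 gene symbols kept lay between 20.7 and 32.3 FPKM, within a factor of 1.25 of the 25.8 FPKM of Nkx1-2. These genes were detected in a median of 77.4% of the 53 cells (quartiles 64.2% and 86.8%), against 22.6% for Nkx1-2. Of the 1335, 25 were detected in as few cells or fewer. Genes of the lists at that level include Hoxb7 (29.6 FPKM in bulk, 96.2% of cells), Hoxb4 (21.2 FPKM, 94.3%), Fgf15 (30.4 FPKM, 83.0%), Jag1 (23.7 FPKM, 69.8%), Hoxc5 (20.97 FPKM, 58.5%) and the Notch receptor Notch3 (23.3 FPKM, 28.3%). Among list genes only the globin Hbb-bh1, at 25.1 FPKM in bulk and in none of the cells, was as rare. Stage (TS12 and TS13) and library kit differ between these data. Hoxc10 and Hoxa10 were at 280.4 and 52.3 FPKM in the bulk T+ Sox2+ fraction, against means of 2.885 and 2.16 FPKM over the cells. Bulk libraries labelled with the same stage differed as well. In WT T+ cells at TS12 these genes were at 236.7 and 38.3 FPKM among the sorted fractions. Beside T KO, WT T+ cells at TS12 held 1.453 and 3.906 FPKM of them. The part of any of these differences in the detection of Nkx1-2 was not tested.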

How the data were processed

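RNA of 53 single cells and 9 bulk libraries was used, and the other samples were not analysed here. All values are FPKM per gene symbol as deposited by the authors. Per the submitters' processing notes the cells were processed with TopHat2 2.1.0, Bowtie, Cufflinks 2.2.1 and Cuffnorm on build mm10, and the bulk libraries also with Bowtie 1.1.2, bedtools 2.23.0, Cuffdiff, Picard 1.103 and SAMtools. What each tool did, the annotation, use of strand and scaling: not given in the sources used here. Per the labels' protocols cells were dissociated with trypsin, captured on a Fluidigm C1 chip and made into Nextera XT libraries, and spike-in RNA was added. Cells were seen in 55 capture sites of the chip, per the labels, and 53 are in the table. Depth per cell is unknown, values could not be thinned, and doublets were not called. No 2 of 1378 pairs of cells had identical values (Pearson correlations 0.45 to 0.74).

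The table has 23983 symbols. Small RNAs, numbered gene models, Rik clones, mitochondrial genes (0 in every cell), ribosomal protein pseudogenes and joined symbols were left out, leaving 19758, of which 8825 had at least 1 FPKM in at least 10 cells. The class difference was fitted by least squares on log2(FPKM + 1) with genes detected as a linear term (Python 3.11.15, numpy 2.4.6, pandas 2.3.3, scipy 1.17.1), and the code was tested on simulated data. Differences of at least 1 in size were counted. Differences within the 27 cells with fewer and the 26 with more genes are plain differences of class means. Those within numbers 30 to 47 have the term unless called plain. The cell table and the bulk tables were taken as normalised separately.

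Named genes were the 12 highest and 12 lowest differences with at least 0.5 in the same direction in both of these groups, with Nkx1-2, T, Sox2, Tbx6, Sox3 and Msgn1 and the extreme members of each list; other genes were chosen after their values were seen. The members and lists were chosen with earlier results of these data known. Overlaps of genes come from RefSeq (GRCm38.p6). Shares have exact Clopper-Pearson intervals, and a share of 0 is given with the limit that 3 cells of the total would allow; both cover counting error only. The alternatives were the term, the pseudocount, the filters, the threshold of Nkx1-2, rescaling and leaving out cells. Some values of single genes are not reported here.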

Additional observations from a re-analysis of the deposited data

How the results depend on the processing

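Against 566 higher and 534 lower as reported, the counts of genes moved by over 1.5 times in 8 of 18 settings for the higher and 9 of 18 for the lower genes. They were 1187 and 102 with no term for genes detected, 1258 and 933 within 3 groups of cells by genes detected, 1302 and 1336 with a pseudocount of 0.1, and 138 and 109 with a pseudocount of 5. With other thresholds of Nkx1-2 they were 353 and 310 for cells above 0 against cells at 0, 1205 and 1113 for at least 5 FPKM (4 cells), and 1663 and 1833 for at least 10 against below 1 (2 cells). With cells rescaled to equal sums 820 genes were lower, and the median over all genes was -0.03. Within numbers 30 to 47, an alternative chosen after seeing the data, the counts were 949 and 934. The causes were not tested. Without the 5 cells with most genes, which could hold more than one cell, the counts were 779 and 729. Leaving out each cell in turn gave 562 to 656 and 529 to 626 genes, medians of -0.38 to -0.05 for axial progenitor, -0.03 to 0.43 for neural and -0.45 to -0.07 for presomitic genes, and a difference in median genes detected of 870.5 to 945, against 925. With no term the axial progenitor and presomitic medians were 0.18 and 0.17, and with Nkx1-2 of at least 5 the neural median was -0.37. The share of cells with Nkx1-2 was 37.7% above 0 and 7.55% at 5 FPKM or more. For 29 genes, 406 of 575 values moved by at most 0.5 and 162 by more. Of differences at least 1 in size 7 others turned round: Lamtor4 at the threshold of 5 (-0.12), Fst at cells above 0 (0.018), and Msgn1 (-0.33), Cdpf1 (0.26), Cd63 (0.15), Stra13 (1.12) and Rrp7a (0.35) at the threshold of 10. The 4 smaller differences turned round in 9 values: T within 3 groups by genes detected (0.15), Sox2 there (-0.73), above 0 (-0.017) and at 5 (-0.77), Tbx6 with no term (0.31), above 0 (0.024), without the 5 cells with most genes (0.048) and within numbers 30 to 47 (0.64), and Sox3 above 0 (-0.014). Terms for genes detected and cell number together, and leaving out numbers 90 to 95 or the 2 cells with most Nkx1-2, were also added after seeing the data and kept both counts within 1.5 times. No paired analysis was possible because the classes hold single cells of one sort, and no result comes from a test. Unknown depth per cell limits every share and every value of 0.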

Other observations

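Cfc1 was nearly absent from the bulk libraries, at 0 to 2.33 FPKM in all 9 of them, with the highest value in T+ WT cells at TS12, while its mean over the 53 cells was 12.1 FPKM. For Nkx1-2 itself the order was the other way round, with a mean of 2.80 FPKM over the 53 cells and 25.8 FPKM in the bulk T+ Sox2+ fraction. Mixl1 averaged 17.9 FPKM over the cells against 8.48 FPKM in that fraction, and Msgn1 11.6 against 112 FPKM. The tables were normalised separately and differ in stage and kit.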
